A study of Mus musculus with 8 samples.

Results

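The Fc gamma receptor genes of the mouse are described here in alveolar macrophages, which live in the airspaces of the lung, as a family of 5 genes. They were chosen by symbol: Fcgr1, Fcgr3 and Fcgr4, which encode activating receptors for immunoglobulin G, Fcgr2b, which encodes the inhibitory receptor, and Fcer1g, which encodes the common signalling chain of the activating receptors. All 5 were found among the 12701 genes of the deposited expression table, and all 5 passed the filter on low values (1 or more in 2 or more libraries). The macrophages were sorted from lungs of C57BL/6 mice in 3 groups: naive mice without tumors (3 libraries), mice 15 days after KP tumor cells were given (d15, 2 libraries) and mice 35 days after (d35, 3 libraries). The KP cells, a cultured tumor line, were injected into the tail vein and seeded the lungs from the blood, so the tumors did not arise in the lung itself. The labels do not say which mice received the GFP-marked form of the line, do not give the sort gates, and give a harvest period that ends before day 35, so the later time is uncertain. Separate animals are not stated for the libraries of a group, so that p-values rest on a spread between samples that could be technical.

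Fc gamma receptors let a macrophage sense antibody bound to a particle or cell. When an immune complex gathers activating receptors, Src-family kinases phosphorylate the tyrosine motifs (ITAMs) of the Fcer1g-encoded chain, the kinase Syk binds there, and phagocytosis, the oxidative burst and cytokine release follow. Fcgr2b carries an inhibitory motif (ITIM) instead and recruits the lipid phosphatase SHIP1, so the balance of activating and inhibitory receptors sets how strongly a cell answers to antibody; in other tumor models, antibodies against tumor cells act in part through these receptors on macrophages.

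Expression is given as scaled CPM, the deposited value made from read counts, which is the read number with a small offset, divided by the size of the library and scaled by a factor for each library. The libraries held 27465745 to 39572173 recovered reads over all genes, and the 5 genes were covered by 1585 reads (Fcgr1, the lowest library) to 33010 reads (Fcgr3, the highest). The d15 columns and the d15 sample titles carry different numbers, and the 2 d15 libraries are therefore called A and B. Of 11 alveolar macrophage markers, all were tested: 2 rose (Pparg and Ear2) and 0 fell at d15, and Car4, Cd68 and Ear2 rose while Siglecf and Adgre1 fell at d35. Pparg was lower at d35 than at d15, at 308 ± 27.6 against 514 ± 36.9 scaled CPM (log2 fold change -0.74, limma adjusted p = 0.00163). Their summed level was 23586 to 31168 scaled CPM in naive, 32552 to 37062 in d15 and 33556 to 47978 in d35 libraries. Most of that sum was the chitinase-like gene Chil3, and Siglecf, a surface lectin that marks these cells, was at 719 ± 36.6 scaled CPM in naive, 574 ± 22.6 in d15 and 591 ± 47.1 in d35 macrophages (SD, n = 3, 2 and 3).

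Fcgr2b, Fcgr3, Fcgr4 and Fcer1g lie close together on chromosome 1 and Fcgr1 lies on chromosome 3 (mm10, GENCODE vM21 annotation). Fcgr2b was placed at chr1:170958617-170976547 on the minus strand, Fcgr4 at chr1:171018920-171029761 on the plus strand, Fcgr3 at chr1:171051174-171064935 on the minus strand and Fcer1g at chr1:171229572-171234365 on the minus strand. Fcgr1 was placed at chr3:96282909-96293969 on the minus strand. All 5 are annotated as protein coding. The antisense gene Gm38204 shares 155 exon bases with Fcgr2b, and since the strand setting of the counting is not given in the sources used here, reads of that stretch cannot be told apart.

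The inhibitory gene Fcgr2b and the activating gene Fcgr3 are close relatives, which bears on how their reads can be told apart. Their coding sequences were identical at 86.7% of 782 aligned bases, against 64.1% to 68.6% for the other 5 pairs of receptor genes. The longest stretch that is exactly the same in both genes runs over 129 bases, from base 278 to 406 of the Fcgr2b coding sequence and from base 263 to 391 of that of Fcgr3, while no other pair shares an exact run of more than 14 bases. That stretch, read from the mm10 transcripts, is shown because a read that falls wholly within it could come from either gene.
Fcgr2b and Fcgr3 shared coding stretch: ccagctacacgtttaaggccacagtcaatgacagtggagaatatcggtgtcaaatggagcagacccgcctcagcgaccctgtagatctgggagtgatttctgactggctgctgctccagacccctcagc
In stretches of 50 bases, 9.58% of those in Fcgr3 transcripts also occur in another gene, and each of these occurs in Fcgr2b. For Fcgr2b 6.95% recur in other genes and 2.92% in Fcgr3, while Fcgr1, Fcgr4 and Fcer1g have 0 such stretches. How the authors assigned shared reads is not given in the sources used here, and values of Fcgr2b and Fcgr3 are uncertain to that extent.

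The proximal promoters differ within the family. The 150 bases before the RefSeq transcript start (GRCm38.p6, gene strand) are shown for the 3 activating receptor genes, which hold a match to either of the motifs searched, and for Fcgr2b, the gene with the largest d15 difference, which holds none. Capitals mark GAGGAA, the core bound by PU.1-type ETS factors, here read on the other strand as TTCCTC, and TTCNNNGAA, the interferon gamma activated site (GAS). Coordinates follow in the order of the sequences: chr3:96293970-96294119 (minus strand), chr1:171059404-171059553 (minus), chr1:171018776-171018925 (plus) and chr1:170976072-170976221 (minus).
Fcgr1 promoter: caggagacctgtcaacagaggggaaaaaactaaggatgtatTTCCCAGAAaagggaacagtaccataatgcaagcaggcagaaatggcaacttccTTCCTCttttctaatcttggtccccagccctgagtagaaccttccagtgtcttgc
Fcgr3 promoter: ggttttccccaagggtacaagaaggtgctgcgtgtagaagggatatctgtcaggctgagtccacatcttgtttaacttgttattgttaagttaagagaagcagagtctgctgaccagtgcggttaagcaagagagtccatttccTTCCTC
Fcgr4 promoter: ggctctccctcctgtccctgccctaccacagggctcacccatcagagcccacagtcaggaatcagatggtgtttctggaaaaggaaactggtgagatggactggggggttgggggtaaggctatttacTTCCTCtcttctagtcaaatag
Fcgr2b promoter: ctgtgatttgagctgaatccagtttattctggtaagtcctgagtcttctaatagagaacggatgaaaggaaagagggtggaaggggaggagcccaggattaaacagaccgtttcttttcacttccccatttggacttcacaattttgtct
The GAS in Fcgr1 begins at position -109 from the start and the ETS core at -55, and these sites do not overlap. The core begins at -6 in Fcgr3 and at -22 in Fcgr4. Another RefSeq start is listed for Fcgr3, with its 150 bases at chr1:171059395-171059544, and the same core begins at -15 from it. The windows of Fcgr3 and Fcgr2b lie inside the GENCODE spans given above for these genes, so they are not upstream of the whole annotated gene. Fcer1g also held neither motif in its window of 300 bases around the start. Searched on both strands, GAGGAA occurs in 28.3% and TTCNNNGAA in 8.30% of 32851 mouse promoter windows of that length, so a match describes these letters only.

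At d15, 1 of the 5 genes, the inhibitory receptor gene Fcgr2b, rose over naive macrophages, and the other 4 had positive differences that did not pass the test. Over all 11273 genes tested, 4.37% were called in either direction and 2.37% were called higher. The median log2 fold change of the 5 genes was 0.35, against 0.012 over all genes tested. The test was limma on log2(value + 1), with p-values adjusted by the Benjamini-Hochberg method over all genes and called at 0.05.

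Fcgr2b had 342 and 369 scaled CPM in d15 libraries A and B, against 204, 184 and 175 in naive libraries 1, 2 and 3. Both d15 libraries lay above every naive library. The d15 mean was 355 ± 18.7 (SD, n = 2), the naive mean was 187.5 ± 14.6 (SD, n = 3), and the log2 fold change was 0.92 ± 0.18 (SE) or 1.89-fold (95% interval on the log2 scale 0.52 to 1.32, limma adjusted p = 0.0255). In the authors' deposited table of this comparison, the gene had a log2 fold change of 0.90 and an FDR of 6.23e-16.

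The 3 activating receptor genes had smaller fold changes than Fcgr2b at d15, a gap that was not tested. Fcgr3, a low-affinity receptor for complexed antibody, had 635 and 702 scaled CPM in d15 libraries, against 535, 521 and 517 in naive libraries. The groups did not overlap, and the log2 fold change of 0.35 ± 0.10 had an adjusted p of 0.0746 by limma. In the authors' deposited table Fcgr3 had a log2 fold change of 0.33 and an FDR of 0.0144, so the 2 tests fall on different sides of 0.05 for a difference of nearly the same size. Fcgr1, the high-affinity receptor that can hold single antibody molecules, had 62.5 and 68.2 scaled CPM at d15, against 53.3, 54.0 and 60.3 in naive libraries (log2 fold change 0.22, 95% interval -0.0014 to 0.45, limma adjusted p = 0.193). Fcgr4, a mouse receptor of intermediate affinity, had 117 and 163 scaled CPM at d15, against 123, 84.0 and 109 in naive libraries. Its groups overlapped, and the interval of its log2 fold change ran from -0.0046 to 0.82 (limma adjusted p = 0.195).

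The signalling chain gene Fcer1g had 533 and 576 scaled CPM in d15 libraries, against 389.65, 443 and 475 in naive libraries. The groups did not overlap, and its log2 fold change of 0.35 (95% interval 0.023 to 0.68) had a limma adjusted p of 0.164. In the authors' deposited table Fcer1g, Fcgr4 and Fcgr1 had FDRs of 0.0645, 0.272 and 0.798. In all, 4 of the 5 genes had both d15 libraries above every naive library, where 25.9% of all genes tested did. The d15 calls rest on few libraries. The Fcgr2b adjusted p was 0.102 without d15 library A, 0.212 without B, 0.106 without naive library 2 and 0.0731 without naive library 3, with log2 fold changes of 0.87 to 0.97. Fcgr3 passed the test without d35 library 2 (adjusted p = 0.0333) and Fcer1g without d35 library 3 (0.0493), libraries that enter this fit only through the estimate of the spread.

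**Figure D1:**
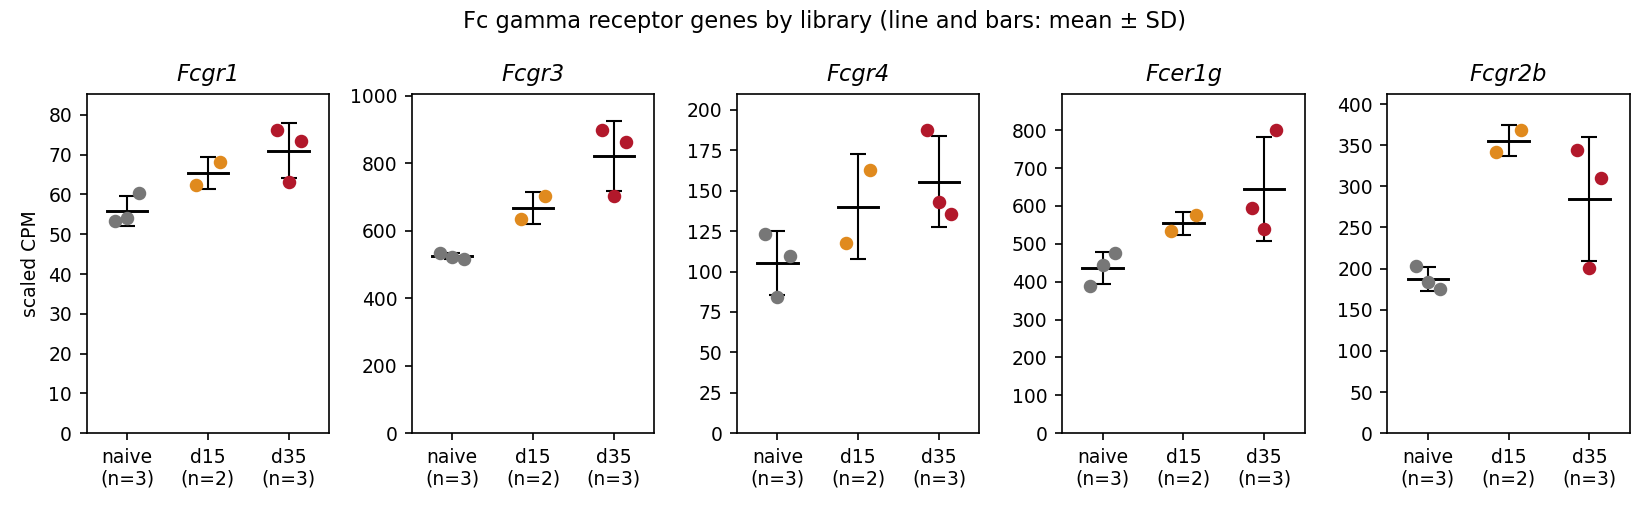
Scaled CPM of each Fc gamma receptor gene (vertical axis, from 0) in the naive, d15 and d35 libraries (points), with the mean and SD of each group (line and bars). The d15 libraries of Fcgr2b (342 and 369) lie above all naive libraries (175 to 204), and d35 library 2 lies lowest of the d35 libraries for Fcgr1, Fcgr2b, Fcgr3 and Fcer1g.

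At d35, all 5 genes rose over naive macrophages, by 1.26- to 1.56-fold. The background was also larger at that time: 16.2% of the 11273 genes were called, and 9.86% were called higher. The median log2 fold change of the 5 genes was 0.56, against -0.0022 over all genes tested. Of the 5, 4 had every d35 library above every naive library, where 20.7% of all genes tested did.

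Fcgr3 had the lowest adjusted p of the family. It had 899, 704 and 863 scaled CPM in d35 libraries 1, 2 and 3, against 535, 521 and 517 in naive libraries. Every d35 library was above every naive library, and the naive libraries lay within a narrow range. The d35 mean was 822 ± 104 and the naive mean 524 ± 9.22 (SD, n = 3 each), and the log2 fold change was 0.64 ± 0.094 (SE) or 1.56-fold (limma adjusted p = 0.00246). This call held in each of the 19 other settings and left-out libraries run, with adjusted p up to 0.0160.

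Fcgr1 had 76.2, 63.2 and 73.5 scaled CPM in d35 libraries, against 53.3, 54.0 and 60.3 in naive libraries. The groups did not overlap, but d35 library 2 and naive library 3 lay close to each other. The log2 fold change was 0.34 ± 0.091 or 1.26-fold (limma adjusted p = 0.0326). Fcgr4 had 188, 143 and 136 scaled CPM in d35 libraries, against 123, 84.0 and 109 in naive libraries. The groups did not overlap, and the means of 155 ± 28.0 in d35 and 105 ± 19.8 in naive macrophages differed by 0.56 ± 0.17 on the log2 scale or 1.47-fold (limma adjusted p = 0.0448).

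Fcgr2b had 344, 200.2 and 310.4 scaled CPM in d35 libraries, against 204, 184 and 175 in naive libraries. It was the only one of the 5 genes whose groups overlapped, because d35 library 2 fell among the naive values while the other two d35 libraries were well above them. The log2 fold change was 0.57 ± 0.16 or 1.48-fold (limma adjusted p = 0.0400). Fcer1g had 596, 538 and 801 scaled CPM in d35 libraries, against 389.65, 443 and 475 in naive libraries. The groups did not overlap, d35 library 3 stood above the other two, and the log2 fold change was 0.55 ± 0.13 or 1.46-fold (limma adjusted p = 0.0216).

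Apart from Fcgr3, these d35 calls were near the threshold and ended when single libraries were left out. Fcgr2b kept its call only where d35 library 2 was left out, and its limma adjusted p was 0.0576 without d15 library A, 0.0577 without d15 library B, 0.112 without d35 library 1, 0.119 without d35 library 3, and 0.0693, 0.114 and 0.113 without naive libraries 1, 2 and 3. Fcgr4 had 0.130 without d35 library 1, 0.0560 without d35 library 3, 0.160 without naive library 2 and 0.0864 without naive library 3. Fcgr1 had 0.0963 without d35 library 1, 0.0863 without d35 library 3, and 0.0984 and 0.107 without naive libraries 1 and 2. Fcer1g had 0.0768 and 0.0686 without naive libraries 1 and 2. When the trend of fold change with exon length was removed, the log2 fold change was 0.17 for Fcer1g (limma adjusted p = 0.178), 0.26 for Fcgr4 (0.364) and 0.21 for Fcgr1 (0.112), while Fcgr2b kept its call at 0.58 and Fcgr3 kept its call at 0.42 (limma adjusted p = 0.0434 and 0.0106).

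**Figure D2:**
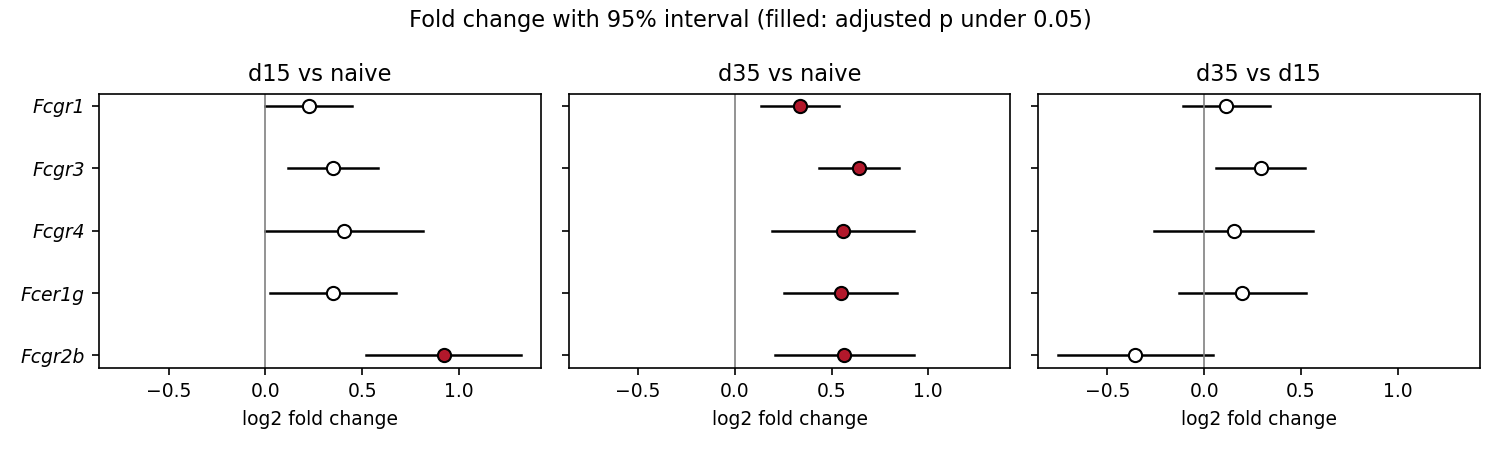
Log2 fold change of each gene (horizontal axis) with its 95% interval in the 3 comparisons, filled where the adjusted p was under 0.05. Only Fcgr2b is filled at d15 (0.92), all 5 are filled at d35 (0.34 to 0.64), and none is filled between d35 and d15, where Fcgr2b is the only gene below 0 (-0.35).

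Between d35 and d15, 0 of the 5 genes passed limma's test, where 7.39% of all genes tested were called. At an unadjusted p under 0.05 there was 1 of the 5, Fcgr3, where 22.3% of all genes tested lay under it. After adjustment edgeR called 0 of the 5, where it called 7.34% of all genes, and DESeq2, which called 12.1%, called 1, again Fcgr3 (log2 fold change 0.31, adjusted p = 0.0437). Fcgr3 had 899, 704 and 863 scaled CPM in d35 libraries, against 635 and 702 in d15 libraries, and every d35 library was above both d15 libraries, by a narrow margin for d35 library 2. Its limma log2 fold change was 0.29 (95% interval 0.061 to 0.52, adjusted p = 0.124), and without d35 library 2 it was 0.40 (0.0162). Fcgr2b was the only gene with a negative difference: it had 344, 200.2 and 310.4 scaled CPM in d35 libraries, against 342 and 369 in d15 libraries. The interval of its log2 difference, -0.76 to 0.046, includes both no change and a fall of most of the d15 difference. The log2 differences of Fcer1g (0.20, interval -0.13 to 0.52), Fcgr4 (0.15, -0.26 to 0.56) and Fcgr1 (0.11, -0.11 to 0.34) had limma adjusted p-values of 0.490, 0.698 and 0.577.

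Ordered by their group means, Fcgr1, Fcgr3, Fcgr4 and Fcer1g were lowest in naive, intermediate in d15 and highest in d35 macrophages. The differences between neighbours in that order, d15 against naive and d35 against d15, passed the test for none of these 4 genes, though d35 against naive passed for each. Fcgr2b had another order, with naive lowest, d35 intermediate and d15 highest, and of its neighbours d35 against naive passed the test and d35 against d15 did not.

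Levels of different genes were compared per kilobase of merged exon length. Averaged over all libraries, Fcer1g was at 622 and Fcgr3 at 387 scaled CPM per kb, followed by Fcgr4 at 106, Fcgr2b at 45.9 and Fcgr1 at 24.7. The signalling chain and the low-affinity activating receptor were thus the most abundant members in the tissue-resident macrophages of every group: Fcer1g was at 499 ± 49.5, 634 ± 35.3 and 738 ± 158 and Fcgr3 at 302 ± 5.31, 385 ± 27.3 and 474 ± 60.0 scaled CPM per kb in naive, d15 and d35 macrophages. The place of Fcgr2b depends on the length used, since its merged exons (5.79 kb) include long and intron-retaining transcripts. With the mean length of the coding transcripts, Fcgr2b was at 139 scaled CPM per kb, above Fcgr4 at 106.

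The ratio of the activating receptors to the inhibitory receptor was lowest at d15. In each library the summed per-kb levels of Fcgr1, Fcgr3 and Fcgr4 were divided by that of Fcgr2b. This ratio was 12.1, 12.2 and 13.5 in naive libraries, 8.18 and 8.80 in d15 libraries and 11.7, 15.7 and 11.8 in d35 libraries. Both d15 libraries lay below all 6 others, and d35 and naive libraries overlapped. No test was run, since the ratio is a score over the family. Fcgr3 made up most of the activating sum in every library, so Fcgr3 over Fcgr2b largely repeats this ratio. It was at 9.35 ± 0.554 in naive, 6.27 ± 0.116 in d15 and 9.91 ± 1.60 in d35 macrophages. Fcgr4 over Fcgr2b, with the same divisor, had the same order of groups at 2.59 ± 0.423, 1.81 ± 0.323 and 2.61 ± 0.643, although its d15 and d35 libraries overlapped. The size of these ratios changed with the length used. With the mean length of the coding transcripts, the activating sum over Fcgr2b was 6.09 in naive, 4.09 in d15 and 6.36 in d35 macrophages. Fcgr4 over Fcgr2b was then 0.858, 0.599 and 0.864, under 1 where the exon length gave values over 1. For a ratio of 2 genes the length sets only the size, so the order of groups cannot change with it. With the longest coding transcript, mean Fcgr4 over Fcgr2b was 1.59 in naive, 1.11 in d15 and 1.60 in d35 macrophages, again over 1. By exon length, Fcgr1 over Fcgr2b, at 0.671, 0.411 and 0.577, was highest in naive macrophages. Fcer1g over the summed activating receptors was 1.23 ± 0.159 in naive, 1.22 ± 0.0599 in d15 and 1.19 ± 0.238 in d35 macrophages, and the 3 groups overlapped.

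**Figure D3:**
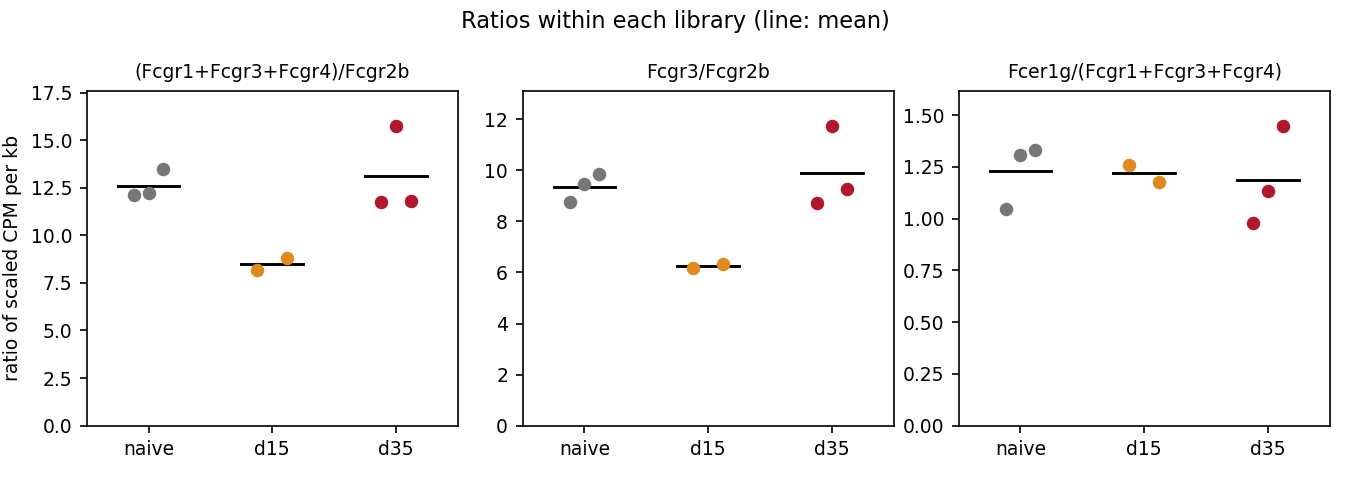
Ratios of scaled CPM per kb within each library (points, vertical axes from 0) in naive, d15 and d35 macrophages, with the group mean as a line. The activating sum over Fcgr2b is at 8.18 and 8.80 in the d15 libraries and between 11.7 and 15.7 in the other 6.

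The genes whose pattern over the 8 libraries was most like that of each member were taken from 8625 genes by Pearson's r of log2 values. These are descriptions, since the libraries of a group share its condition. Ly86, which encodes MD-1, a partner of a Toll-like receptor relative, was most like Fcgr3 (r = 0.988), followed by the interferon-inducible GTPase gene Irgm1 (0.986) and the endocytosis gene Sh3gl1 (0.984). Fcer1g was most like the purine salvage enzyme gene Aprt (0.993), with Ndufs3 (0.993), a subunit of respiratory complex I, and Tmem126a (0.992). Fcgr1 was most like Ppie (0.984), Ndufv3 (0.983) and Hscb (0.979), and Fcgr2b most like Abhd17a (0.975), Nip7 (0.965) and Pgp (0.964). Fcgr4 had the weakest nearest genes, Snx17 (0.947), Mfsd14a (0.946) and Edem1 (0.946).

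The rest of the Fc receptor pathway was described through 7 lists with 131 tested genes in all. At d15, 3 of these genes rose and 9 fell, where 2.37% of all genes tested were called higher and 2% lower. At d35, 24 rose and 11 fell, where 9.86% of all genes were called higher and 6.32% lower. Between d35 and d15, 22 rose and 2 fell, where 4.59% were called higher and 2.8% lower. The d15 count was 0 without d15 library B, 4 without A, 7, 1 and 2 without naive libraries 1, 2 and 3, and 22 without d35 library 3.

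Of 14 tested genes of other adaptors and receptors that signal through ITAMs, 6 rose over naive macrophages at d35 (Tyrobp, Clec4n, Clec4d, Trem2, Cd300lb and Clec1b) and Trem1 fell, and the list median was 0.31 on the log2 scale, against -0.0022 over all genes. Tyrobp, which encodes DAP12, the other main ITAM adaptor of macrophages beside the Fcer1g chain, had 625, 574 and 761 scaled CPM in d35 libraries, against 464, 469 and 509 in naive libraries (log2 fold change 0.43, limma adjusted p = 0.0194). Clec4n, which encodes Dectin-2, a fungal lectin receptor that signals through the Fcer1g chain, was at 1005 ± 129 in d35 and 537 ± 25.7 in naive macrophages (log2 fold change 0.90, adjusted p = 0.000301). It was the one gene of this list that rose at d15, at 741 ± 25.9 against 537 ± 25.7 scaled CPM (log2 fold change 0.46, limma adjusted p = 0.0362), and with the length trend removed its log2 fold change was 0.27 and did not pass (limma adjusted p = 0.183). Clec1b, the platelet and myeloid receptor CLEC-2, fell to 42.4 ± 5.22 at d15, against 66.9 ± 4.93 in naive macrophages (adjusted p = 0.00852), and rose to 112 ± 5.10 at d35 (adjusted p = 0.000821, both by limma).

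Of 33 tested genes of the kinases and adaptors next to the receptors, 0 rose and 4 fell at d15 (Fgr, Vav3, Prkcd and Card9), with a list median of -0.23 on the log2 scale. At d35, 4 rose (Src, Lat2, Blnk and Prkcd) and 3 fell (Pik3r1, Pik3ap1 and Card9), with a median of -0.096. The Src-family kinase gene Fgr had 300 and 247 scaled CPM in d15 libraries, against 395.5, 416 and 376 in naive libraries (log2 fold change -0.54, limma adjusted p = 0.0218), and 375 ± 27.5 in d35 against 396 ± 20.2 in naive macrophages. Prkcd, a protein kinase C that couples Syk to Card9, fell at d15 to 286 ± 7.84 against 414 ± 45.0 scaled CPM (log2 fold change -0.52, limma adjusted p = 0.0351). At d35 it rose to 609 ± 79.1 (log2 fold change 0.55, limma adjusted p = 0.00771). Blnk, an adaptor best known in B cells, reached 14.0, 4.43 and 6.34 scaled CPM in d35 libraries, against 0.790, 0.655 and 0.583 in naive libraries (adjusted p = 0.00143). The most abundant gene of this list, the phosphoinositide kinase adaptor gene Pik3ap1, was at 806 ± 105 in d35 and 1108 ± 52.1 in naive macrophages (limma adjusted p = 0.0133).

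Among 13 genes of the inhibitory phosphatases and their adaptors, Ptpn6, which encodes SHP-1, and Ubash3b fell at d15. Ptpn6 was at 455 ± 57.0 in d15 and 591 ± 16.8 scaled CPM in naive macrophages (log2 fold change -0.38, limma adjusted p = 0.0476, and over 0.05 by edgeR). At d35, Dok2 rose to 119 ± 22.1 against 74.9 ± 3.72 scaled CPM, and Cbl, Ubash3b and Pag1 fell. Of 16 other inhibitory receptors, Lilrb4a fell at d15, to 242 ± 3.16 against 373 ± 50.5 scaled CPM in naive macrophages (log2 fold change -0.61, limma adjusted p = 0.0277). At d35, 4 rose (Cd300a, Clec12a, Clec4a2 and Ceacam1) and Siglecf fell. Cd300a, which recognises lipids on dying cells, had 133, 80.3 and 93.0 scaled CPM in d35 libraries, against 45.5, 50.8 and 37.9 in naive libraries (log2 fold change 1.15, limma adjusted p = 0.00332). Sirpa, the most abundant inhibitory receptor listed, was at 2165 ± 233 in d15 and 2762 ± 86.4 scaled CPM in naive macrophages (adjusted p = 0.0649).

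Of 30 genes of the actin and oxidase machinery of phagocytosis, Dock2 fell at d15 (log2 fold change -0.33, limma adjusted p = 0.0487), and at d35 Rac2, Arpc3, Gsn and Cyba rose while Dock2 fell. The d15 call of Dock2 was lost by edgeR (adjusted p = 0.0542) and limma-voom (0.0538), and with the length trend removed its log2 fold change was -0.19 at d15 (limma adjusted p = 0.137) and -0.17 at d35 (0.0981). Rac2, the blood-cell GTPase that activates the oxidase, was at 280 ± 27.8 in d35 and 198 ± 1.29 scaled CPM in naive macrophages (log2 fold change 0.49, limma adjusted p = 0.00383). Gsn, which encodes the actin-severing protein gelsolin, was at 546 ± 65.0 in d35 and 371 ± 30.5 in naive macrophages (adjusted p = 0.00559). Cybb, the oxidase core and the most abundant gene of the list, was at 3002 ± 269 in d35 and 2735 ± 137 in naive macrophages, and did not pass limma's test (adjusted p = 0.365).

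Of 19 known regulators of Fc receptor expression, the interferon gamma receptor chain gene Ifngr1 and the interleukin 4 receptor gene Il4ra rose at d15. Ifngr1 had 470 and 647 scaled CPM in d15 libraries, against 368, 322 and 327 in naive libraries (log2 fold change 0.70, limma adjusted p = 0.0191), while its d35 level was 369 ± 23.2. Il4ra was at 275 ± 12.8 scaled CPM in d15 and 194.5 ± 26.2 in naive macrophages (limma adjusted p = 0.0300), and at 282 ± 12.4 in d35 macrophages (limma adjusted p = 0.00605 against naive). At d35, Irf1, an interferon-induced transcription factor gene, rose to 98.4 ± 18.6 against 58.3 ± 4.55 scaled CPM (log2 fold change 0.73, limma adjusted p = 0.00569), and Ifngr2 rose as well. Cebpb, the most abundant regulator listed, was at 1978 ± 459 in d35 and 1844 ± 56.6 in naive macrophages (adjusted p = 0.741).

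Among 6 tested genes of other Fc-binding proteins, the lowest limma adjusted p at d15 was 0.0965, for Fcmr. At d35 Pigr and Fcrlb rose, and Fcer2a and Fcmr, low in all libraries, fell. Fcrlb, a receptor-like protein gene of the same chromosome 1 family in mouse, had 9.77, 5.83 and 9.58 scaled CPM in d35 libraries, against 4.25, 3.52 and 3.83 in naive libraries (limma adjusted p = 0.0106). The neonatal Fc receptor gene Fcgrt, which is related to MHC class I and not to the Fc gamma receptors, was at 598 ± 57.7 in naive, 620 ± 42.9 in d15 and 544 ± 34.2 scaled CPM in d35 macrophages, and the d15 and d35 libraries each overlapped the naive libraries.

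**Figure D4:**
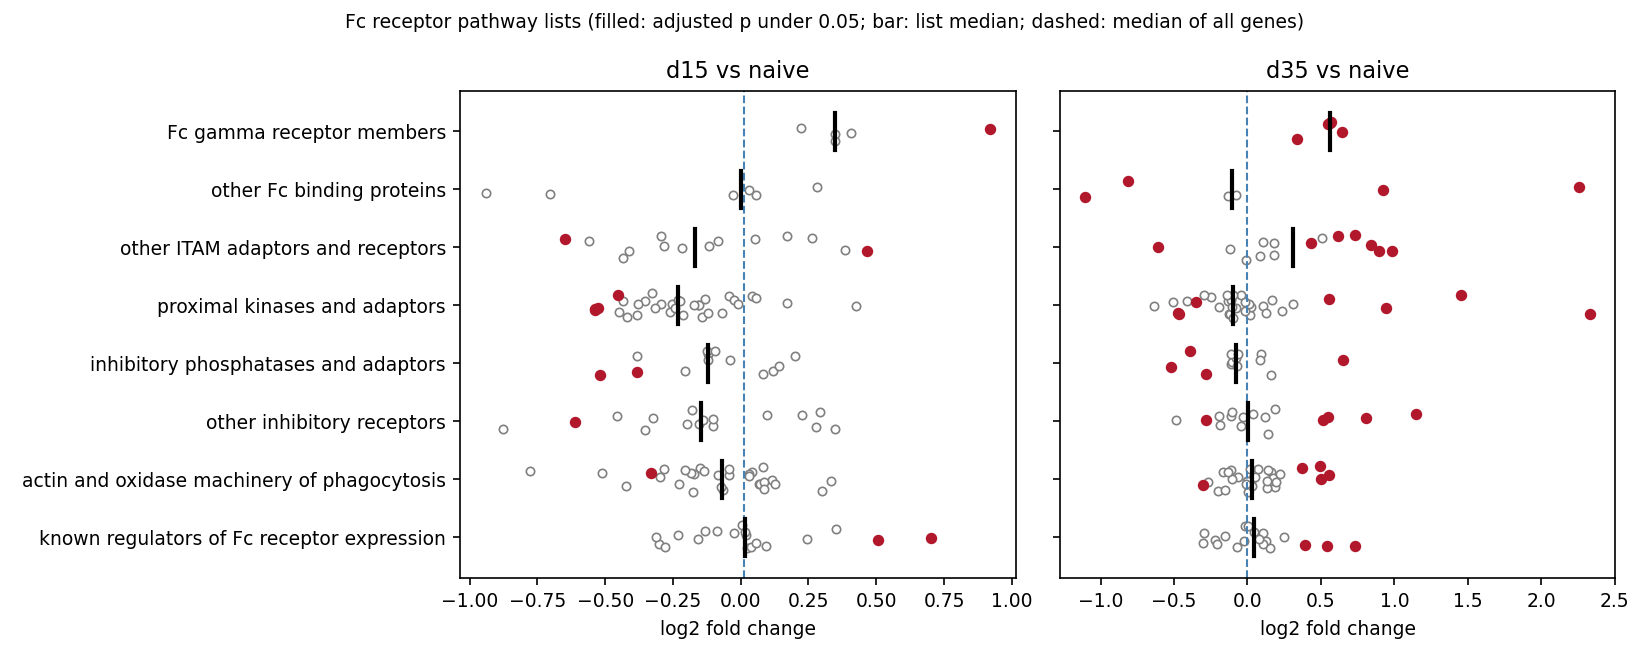
Log2 fold changes of the genes of the Fc gamma receptor family and the 7 pathway lists (points, filled where the adjusted p was under 0.05). The comparisons are d15 and d35, each against naive macrophages, with the list median as a bar and the median of all genes as a dashed line. The family median is 0.35 at d15 and 0.56 at d35, against -0.23 and -0.096 for the proximal kinases and adaptors. These medians are not corrected for exon length. With the length trend removed, d35 log2 fold changes were lower for Fcer1g (0.17), Fcgr1 (0.21), Fcgr4 (0.26) and Fcgr3 (0.42), and not for Fcgr2b.

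Markers of other cell types changed in both directions at d35. Of 17 tested monocyte and interstitial macrophage markers, 8 rose at d35, among them Ccr2, C1qa, C1qb, C1qc, Apoe, Plac8 and Fn1, and 0 fell, and the summed level of the list was 3110, 1827 and 2377 scaled CPM in d35 libraries 1, 2 and 3, against 1303, 1783 and 1530 in naive libraries. C1qb had 156, 43.8 and 98.5 scaled CPM in d35 libraries, against 0.454, 1.77 and 1.57 in naive libraries. The lowest d35 library in C1qb and in this sum was library 2, which was also the lowest in Fcgr1, Fcgr2b, Fcgr3 and Fcer1g. That library was the lowest in the alveolar macrophage sum as well, at 33556 against 47978 and 38481.5 scaled CPM in d35 libraries 1 and 3. Fcgr4 was lowest in d35 library 3 (136), and Fcer1g was highest there (801), while C1qb was highest in d35 library 1. Monocytes and interstitial macrophages also express Fc gamma receptors, and the part of such cells in the d35 rises was not tested. At d15 the list sum, mostly Fn1 and Cd14, was 1371 and 1528, within the naive range, and the list median was -0.074 on the log2 scale. C1qb was called higher and Cx3cr1 was called lower. C1qa had 1.94 and 4.17 scaled CPM in d15 libraries, against 0.454, 1.32 and 1.33 in naive libraries. C1qc had 2.56 and 4.99, against 0.286, 0.902 and 0.795, and neither was called. The sum says little about such low markers. In such bulk libraries, more cells of a type and more RNA per cell cannot be told apart.

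B cells express Fcgr2b as their only Fc gamma receptor, and 0 of 5 tested B cell markers were called higher at d15 or d35 by limma. Cd79a and Cd79b fell at d35, Cd79b to 0.878 ± 0.293 scaled CPM against 3.18 ± 0.798 in naive macrophages. The summed level of the 5 B cell markers, mostly Cd22, was 146 to 159 in naive, 123 to 139 in d15 and 140 to 156 scaled CPM in d35 libraries. Of 5 tested neutrophil markers, S100a9 and Ltf rose at d35, both under 3 scaled CPM on average, and 0 fell. The list median at d35 was 1.07 on the log2 scale, against -0.0022 over all genes. Cxcr2 was at 11.4 ± 5.90 in d35 and 3.63 ± 0.698 in d15 macrophages (limma adjusted p = 0.0241). The list sum, mostly Csf3r, was 68.9 to 86.9 in naive, 64.2 to 83.4 in d15 and 52.9 to 98.4 in d35 libraries. Csf3r had 57.4, 37.9 and 53.8 scaled CPM in d35 libraries, against 77.5, 59.2 and 67.7 in naive libraries, so the sum says little about the other markers. The summed NK and T cell markers were at most 8.97 and the dendritic cell markers at most 12.4 scaled CPM in any library, and the mast cell marker Kit was lower at d35. Endothelial markers summed to 274 to 354 in naive, 187 to 224 in d15 and 166 to 219 in d35 libraries, with 3 and 8 of 10 called lower at d15 and d35. Of 9 epithelial and tumor markers, Krt8 and Krt18 rose at d35, Krt8 to 15.0 ± 4.43 against 0.262 ± 0.125 scaled CPM, and Epcam fell. The part of these lists in the differences of the Fc gamma receptor genes was not tested.

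**Figure D5:**
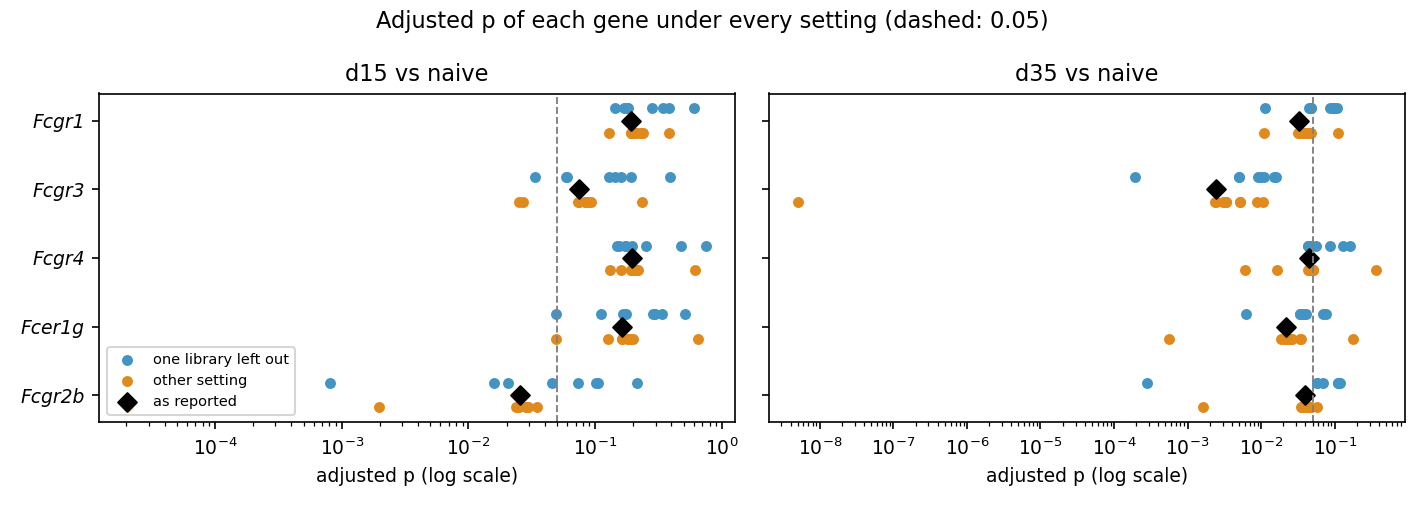
Limma, edgeR or DESeq2 adjusted p of each gene (horizontal log axis) as reported (diamonds), with 1 library left out (upper points) and under other settings (lower points), with 0.05 as a dashed line. At d35, Fcgr3 stays left of the line in all settings, and each of the other 4 genes has points on both sides.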

How the data were processed

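RNA was sequenced from 8 libraries of sorted lung macrophages, 3 naive, 2 d15 and 3 d35. The submitters' processing notes name STAR 2.5, edgeR and the build mm10. The counting program, annotation and strand setting were not given in the sources used here. The deposited expression table gives each gene as a scaled signal, which the authors computed from reads: 100% of values came out as whole reads within 0.001 when read as (reads + 0.5) times 1 constant per library, which gave 27465745 to 39572173 reads per library. No gene had fewer than 41 reads over all libraries, so low genes had already been left out. The authors' deposited d15 table gives log2 fold changes, a likelihood-ratio score, p-values and FDR values for 10778 genes, per the file headers, and its log2 sign was that of d15 minus naive for 100% of 228 genes past 1.

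The main test was limma 3.58.1 (R 4.3.3) on log2(value + 1) with an intensity trend. It covered the 11273 genes at 1 or more in 2 or more libraries. Group was the single term, all 8 libraries were fitted (residual df 5, prior df 5.72), and Benjamini-Hochberg adjusted p-values were called at 0.05. Fold changes understate the change of low genes. Alternatives were other pseudocounts, quantile normalization, no filter, fits of only 2 groups, removal of a length trend, leaving out each library, a replicate block, limma-voom, and edgeR 4.0.16 and DESeq2 1.42.0 on the recovered reads. The limma step was tested on simulated data. Lists were described by counts and medians. The members and lists were chosen with earlier results of these data known. The genes named were all 5 members, the 2 genes of each pathway list with the lowest adjusted p per comparison, the member of each list with the highest mean, and the 3 genes most like each member. Tyrobp, the C1q genes, Cd79b, Krt8, and other list genes named beside counts were chosen after their values were seen. Promoters came from RefSeq (GRCm38.p6) and transcripts and gene positions from GENCODE vM21. All 5 members matched.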

Additional observations from a re-analysis of the deposited data

Results flagged for a closer look

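Of the genes of the pathway lists named here, 18 had effects at d35 that differed from those at d15. The test was limma's d35 against d15 over all genes, called at an adjusted p under 0.05. Many were named for a low adjusted p in this same comparison, so that count was largely set by the choice of genes. Of all 131 tested list genes, 22 rose and 2 fell. None of the 5 Fc gamma receptor genes was called, where 7.39% of all genes tested were, so 0 of 5 does not set the family apart. On the log2 scale, d35 minus d15, the differences of the named genes were 2.28 for Blnk, 1.08 for Prkcd and 0.46 for Fgr among kinases and adaptors. Among ITAM receptors they were 1.38 for Clec1b, 1.18 for Cd300lb, 1.05 for Clec4d, 0.81 for Trem2 and 0.43 for Clec4n. They were 1.60 for Cd300a, 0.91 for Ceacam1, 0.75 for Lilrb4a and 0.77 for Dok2 among inhibitory receptors and adaptors, and 0.74 for Myo1e, 0.67 for Rac2 and 0.52 for Gsn in the actin and oxidase machinery. Pigr differed by 2.29, Irf8 by 0.46 and Ifngr1 by -0.58. Of the marker genes named, C1qb differed by 3.46, C1qa by 3.21, C1qc by 3.12, Plac8 by 1.93, Ccr2 by 1.36, Ltf by 1.61 and Cxcr2 by 1.33. Krt8 differed by 3.56, Krt18 by 3.56, Cd68 by 0.38, Pparg by -0.74 and Epcam by -0.82. Prkcd and Clec1b were called lower at d15 and higher at d35 against naive macrophages, and Clec4n was called higher at both times. Without d15 library B, the adjusted p was 0.191 for Ifngr1, 0.164 for Irf8, 0.115 for Dok2, 0.110 for Myo1e and 0.0612 for Lilrb4a, without d15 library A it was 0.0530 for Lilrb4a, and without d35 library 1 it was 0.0516 for Ifngr1. The naive libraries enter these d35 against d15 calls only through the estimate of the spread, and the cause of the differences was not tested.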

How the results depend on the processing

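No alternative turned the direction of a family gene against naive macrophages. The calls at d15 and d35 depended on single libraries and on the fit. At d15, genes called numbered 493, against 1179 with only the 2 groups fitted and 1451 by DESeq2, and 12 to 1079 with 1 library left out. The family count was 1 at d15, against 3 with only 2 groups and 2 by DESeq2 (0 to 2 with 1 library left out), and 12 pathway genes were called, against 24 and 34 (0 to 22). With only 2 groups, Fcgr3 (0.35, adjusted p = 0.0269) and Fcer1g (0.35, 0.0487) passed at d15, and DESeq2 called Fcgr3 (0.34, 0.0251). With the length trend removed, Fcer1g was at 0.079 (0.645), Fcgr3 at 0.19 (0.234), Fcgr4 at 0.19 and Fcgr1 at 0.14, while Fcgr2b was at 0.97 and kept its call. With 1 library left out, d15 log2 fold changes ran from 0.87 to 0.98 for Fcgr2b, 0.28 to 0.42 for Fcgr3 and 0.27 to 0.41 for Fcer1g.

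At d35, genes called ran from 635 to 2294, family genes from 1 to 5 and pathway genes from 23 to 40 with 1 library left out. Log2 fold changes ran from 0.28 to 0.42 for Fcgr1, 0.41 to 0.80 for Fcgr2b, 0.57 to 0.75 for Fcgr3, 0.41 to 0.68 for Fcgr4 and 0.38 to 0.67 for Fcer1g. Removing the length trend left 2 of 5 calls, with Fcgr1 at 0.21, Fcgr4 at 0.26 and Fcer1g at 0.17, and Fcgr3 called at 0.42. Fcgr4 was just past 0.05 with quantile normalization (0.54, adjusted p = 0.0513), edgeR with DESeq2 size factors (0.55, 0.0505) and limma-voom (0.56, 0.0502), and Fcgr2b with only 2 groups (0.57, 0.0585). The replicate numbers of naive and d35 libraries share only a number (correlations of same-numbered deviations -0.0071, -0.046 and 0.147), and with the replicate block all 5 calls held (1460 genes called, adjusted p = 0.0088 to 0.0455).

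Between d35 and d15, 833 genes were called, against 421 with only 2 groups and 1368 by DESeq2, and 193 to 1052 with 1 library left out. Family genes were 0, against 1 by DESeq2 (Fcgr3, 0.31) and 0 to 1, and pathway genes 24, against 14 and 39 (7 to 33). Fcgr3 ran from 0.22 to 0.40, and Fcgr4 from -0.082 to 0.39, being negative without d15 library A (-0.082, adjusted p = 0.904).

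The mean log2 ratio of activating receptors to Fcgr2b was 3.66 in naive, 3.08 in d15 and 3.70 in d35 libraries, and 1.87, 1.30 and 1.91 without division by length. With the mean length of the coding transcripts, an alternative chosen after seeing the data, it was 2.61, 2.03 and 2.66, and Fcgr2b, Fcgr3 and Fcer1g levels were 139, 626 and 802 scaled CPM per kb. With 1 library left out it ran from 3.61 to 3.68 in naive, 3.03 to 3.14 in d15 and 3.56 to 3.77 in d35 libraries. Over 42 comparisons of named list genes, 770 values under alternatives were computed: 699 kept their side of the threshold, 58 lost a call, 13 gained one and 0 changed direction. The cause of these changes was not tested.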
